A study of Homo sapiens with 12 samples.

Results

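The genes described here encode subunits of Polycomb repressive complex 1 (PRC1), followed in the human rhabdoid tumour cell line G401. The members were the rows whose gene identifier, without its version, maps to CBX2, CBX6, CBX7, CBX8, BMI1, PCGF2, RING1, RNF2 or PHC1. This found 8 of the 9 genes among 57820 gene identifiers, and PCGF2 was not analysed here. Every culture carried the genotype SMARCB1(-/-), and doxycycline induced either GFP, the control protein, or SMARCB1, which belongs to the core of the SWI/SNF chromatin remodellers. Each cell state then received the solvent DMSO or dBRD9-A, a degrader of BRD9, a bromodomain protein of a non-canonical SWI/SNF complex, for 24 hours. Polyadenylated RNA was sequenced from 3 replicates in each of the 4 groups. The induced SMARCB1 came from an introduced construct in 1 tumour cell line, so its amount was that of the construct. Nothing in the labels says that replicates came from separate cultures, and p-values therefore measure only the spread between these samples, which may be technical.

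PRC1 is a histone H2A ubiquitin ligase that helps to keep developmental genes silent. The ligase core pairs RING1 or RNF2 (also called RING1B) with 1 of the PCGF proteins, such as BMI1. Canonical complexes add a CBX chromodomain protein, which binds the methylated histone H3 made by Polycomb repressive complex 2 (PRC2), and a PHC protein, whose SAM domain joins complexes into larger assemblies. Variant complexes carry RYBP or its paralog YAF2 in place of CBX and PHC. SWI/SNF complexes are known for opposing Polycomb repression, a balance studied in SMARCB1-mutant rhabdoid tumours.

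Of the members that passed the test between SMARCB1 and GFP cells in DMSO, 4 had an entry in the RefSeq promoter table, and their upstream sequences are printed so that genes that rose (RNF2, RING1) can be set beside genes that fell (BMI1, CBX6). The table matched 6 of the 8 members, and CBX2 and CBX8 did not match. Sequences are from RefSeq on GRCh38.p14, from 5′ to 3′ toward the gene, without bases that are exonic in GENCODE 29. For BMI1 the first of the listed starts was used. Capitals mark matches on either strand to the GC box GGGCGG, the E-box CACGTG, the CCAAT box CCAAT and the AP-1 motif TGANTCA.
RNF2, chr1:185045308-185045363, plus strand: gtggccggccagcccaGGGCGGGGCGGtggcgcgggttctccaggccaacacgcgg
RING1, chr6:33208250-33208494, plus strand: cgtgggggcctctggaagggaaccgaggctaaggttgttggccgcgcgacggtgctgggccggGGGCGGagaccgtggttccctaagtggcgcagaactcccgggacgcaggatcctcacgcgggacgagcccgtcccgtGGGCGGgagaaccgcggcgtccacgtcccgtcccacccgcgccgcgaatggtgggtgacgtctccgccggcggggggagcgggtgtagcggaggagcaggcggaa
BMI1, chr10:22320849-22321098, plus strand: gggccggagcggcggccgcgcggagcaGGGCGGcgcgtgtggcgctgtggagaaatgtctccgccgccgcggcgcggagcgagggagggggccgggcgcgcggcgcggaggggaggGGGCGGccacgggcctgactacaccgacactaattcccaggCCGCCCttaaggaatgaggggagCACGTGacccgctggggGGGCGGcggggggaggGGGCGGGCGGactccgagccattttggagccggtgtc
CBX6, chr22:38872315-38872466, minus strand: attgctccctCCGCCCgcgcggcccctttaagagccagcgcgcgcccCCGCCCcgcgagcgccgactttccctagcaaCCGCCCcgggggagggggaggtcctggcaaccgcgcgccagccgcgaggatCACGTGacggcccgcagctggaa
In the whole 250 bases upstream of the start, trimmed bases included, the GC box occurred 6 times for BMI1, 4 times for RNF2, 4 times for CBX6 and 2 times for RING1. At least 1 GC box occurred in 42.6% of 35116 promoter windows of the same length, counted by table entry. BMI1 and CBX6 each held 1 E-box, which 6.34% of those windows contained, and the RNF2 and RING1 windows held no match to these letters. The window of the other BMI1 start in the table, chr10:22321706-22321955, held no E-box either, so the E-box of BMI1 depends on the start taken. No match to CCAAT (32% of windows) or to TGANTCA (6.57%) was present in the windows of these members. GC boxes can overlap one another and were counted at each start position. The windows held 34 CpG dinucleotides for RNF2, 34 for RING1, 35 for BMI1 and 45 for CBX6, against a median of 11. These matches describe the letters only.

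Libraries held 34.97 to 58.54 megacounts (of 1000000 counts) assigned to genes, so that 3 counts, used as the floor, corresponded to 0.0513 to 0.0858 counts per megacount (CPM). SMARCB1 had 0 to 2 counts in the GFP libraries and 53033 to 110893 in the SMARCB1 libraries, so that no library went against the label of its induced protein. The DMSO and dBRD9-A labels were not checked by these counts. The mean level of SMARCB1 in SMARCB1 cells was 1880 CPM in DMSO and 1310 CPM with dBRD9-A. The BRD9 transcript, which the compound does not target, averaged 38.3 to 47.5 CPM in the 4 groups. VIM, a mesenchymal marker, had at least 45667 counts in each library, PTPRC (leukocytes) had 0 in all 12 and ALB (hepatocytes) had 0 or 1. The epithelial and endothelial markers EPCAM, CDH1 and CDH5 had at most 44, 37 and 10 counts. Fewer cells expressing a gene and less RNA per cell cannot be told apart in these bulk samples.

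All 8 members were expressed in every library and passed the filter on low counts. Levels can be compared between genes only per length, here as CPM per kilobase of GENCODE 29 exons, an annotation that may differ from the one used for counting. In GFP cells in DMSO the order was BMI1 (66.6 ± 0.891), CBX6 (13.5 ± 0.452), RNF2 (12.1 ± 0.154), CBX2 (8.53 ± 0.317), RING1 (5.69 ± 0.644), CBX8 (1.95 ± 0.212), PHC1 (1.55 ± 0.16) and CBX7 (0.705 ± 0.0619; SD, n = 3 for each). The ranges of neighbours in this order did not overlap, although CBX8 (1.78 to 2.19) and PHC1 (1.41 to 1.73) lay close. In SMARCB1 cells in DMSO the order of CBX6 and RNF2 was the other way round, with 11 ± 0.359 CPM per kilobase for CBX6 and 15.3 ± 0.133 for RNF2 (SD, n = 3). RING1 and CBX2 overlapped in SMARCB1 cells with dBRD9-A, at 7.21 to 9.54 and 7.03 to 7.69 CPM per kilobase. BMI1 was thus the member with the most transcript per length in each group, and CBX7 the one with the least.

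**Figure D1:**
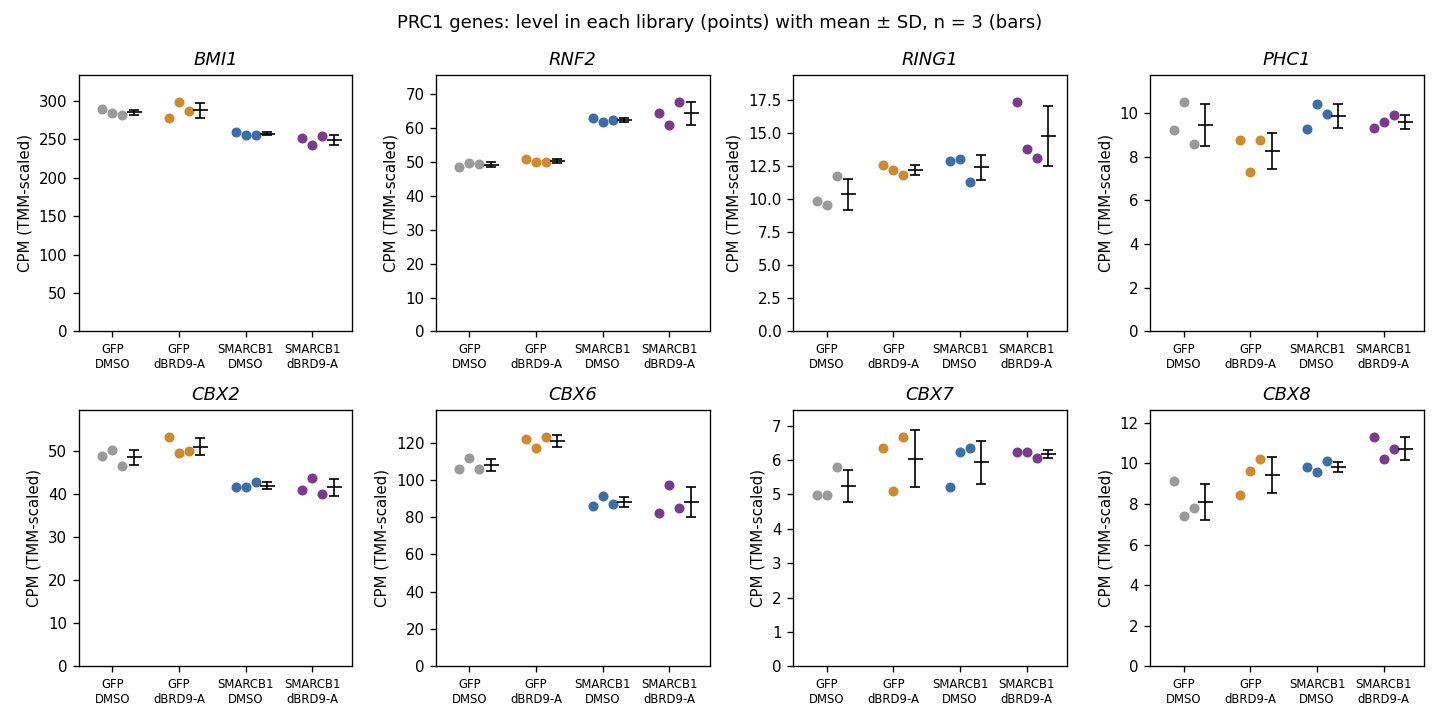
Level of each PRC1 gene in each of the 12 libraries, in TMM-scaled CPM on axes from 0; points are libraries by group and bars the mean ± SD (n = 3). RNF2 lies higher and CBX2, CBX6 and BMI1 lie lower in both SMARCB1 groups, with no overlap with the GFP group of the same treatment. The share of all genes without such overlap was not counted.

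The first comparison asked which PRC1 genes differ once SMARCB1 is present, in DMSO. RNF2, CBX8 and RING1 rose and CBX6, CBX2 and BMI1 fell with TMM scaling of the libraries. Fitted changes were 1.11-fold (BMI1) to 1.27-fold (RNF2). With scaling by ERCC spike-in RNA, BMI1 turned to a log2 fold change of 0.02. CBX2 (-0.04) and CBX6 (-0.13) then no longer passed, and no member was called lower. On the TMM scale, CBX7 and PHC1 did not pass the test. On that scale the catalytic subunits rose, the BMI1 partner fell, and the CBX readers went in different directions. The test was edgeR's quasi-likelihood test with Benjamini-Hochberg adjustment over 15750 genes, which called 33.5% of all genes higher and 31.6% lower, so that 6 of 8 members is close to the share of all genes called. The median log2 fold change of the members was 0.12, against 0.00 over all genes. The median size of the change over all genes was 0.28 on the log2 scale, which RNF2 and CBX6 alone among the members exceeded. The share of all genes whose groups do not overlap was not counted, so a lack of overlap describes only the gene named.

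Of the catalytic subunits, RNF2 gives most of the H2A ligase activity in many cells. RNF2 measured 48.5, 49.8 and 49.3 CPM in the GFP libraries and 63, 61.9 and 62.4 CPM in the SMARCB1 libraries. The groups were far apart for their spread, and the log2 fold change was 0.34 (SE 0.04, edgeR adjusted p = 1.26e-07). RING1, its paralog, measured 9.82, 9.53 and 11.7 CPM with GFP and 12.9, 13 and 11.3 CPM with SMARCB1. The groups overlapped, because the third GFP library lay above the third SMARCB1 library. The log2 fold change of RING1 was 0.25 (SE 0.10, edgeR adjusted p = 0.0341). That call was lost on leaving out GFP DMSO replicate 1 (adjusted p = 0.122), GFP DMSO replicate 2 (0.122), SMARCB1 DMSO replicate 1 (0.0996) or SMARCB1 DMSO replicate 2 (0.109), all by edgeR.

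BMI1, the PCGF partner known for silencing the CDKN2A locus, measured 289, 284 and 282 CPM with GFP and 259, 256 and 256 CPM with SMARCB1. All 3 SMARCB1 libraries lay below all 3 GFP libraries, and the log2 fold change was -0.15 (SE 0.03, edgeR adjusted p = 0.000258). BMI1 shares its exons on the same strand with the read-through gene COMMD3-BMI1, which had 222 to 479 counts per library. Summing both genes gave -0.15 (edgeR adjusted p = 0.000291).

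Among the CBX readers, CBX6 measured 106, 112 and 106 CPM with GFP and 85.9, 91.4 and 87.3 CPM with SMARCB1. The groups did not overlap, and CBX6 fell by 0.29 on the log2 scale (SE 0.05, edgeR adjusted p = 4.07e-05). CBX2, which can compact nucleosomes, measured 48.8, 50.1 and 46.6 CPM with GFP and 41.5, 41.5 and 42.8 CPM with SMARCB1. It also fell in every SMARCB1 library relative to every GFP library, by 0.21 on the log2 scale (SE 0.04, edgeR adjusted p = 0.000285). CBX8 measured 9.11, 7.42 and 7.81 CPM with GFP and 9.82, 9.6 and 10.1 CPM with SMARCB1. The groups again did not overlap, and the log2 fold change of CBX8 was 0.27 (SE 0.08, edgeR adjusted p = 0.00704). CBX7 measured 4.99, 4.99 and 5.79 CPM with GFP and 5.21, 6.25 and 6.35 CPM with SMARCB1. Its groups overlapped, and its log2 fold change of 0.18 had a 95% interval of -0.06 to 0.42 (edgeR adjusted p = 0.144). Without SMARCB1 DMSO replicate 1, CBX7 passed the test with 0.26 (edgeR adjusted p = 0.0454).

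PHC1 measured 9.23, 10.5 and 8.61 CPM with GFP and 9.29, 10.4 and 9.96 CPM with SMARCB1. These groups overlapped, with a log2 fold change of 0.07 and a 95% interval of -0.11 to 0.26. Its paralog PHC2, which is not among the members, rose from 36.2 to 50.9 CPM (log2 fold change 0.49, SE 0.03, edgeR adjusted p = 3.88e-10). PHC3, a further paralog, had a log2 fold change of -0.07 (95% interval -0.22 to 0.07).

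With dBRD9-A in both cell states, the comparison of SMARCB1 with GFP used 6 other libraries. The SMARCB1 transcript was itself lower with dBRD9-A in SMARCB1 cells (log2 fold change -0.52, edgeR adjusted p = 4.95e-08). Its level thus differed from that in the first comparison, and what this meant for the members was not tested. RNF2, RING1 and PHC1 rose and CBX6, CBX2 and BMI1 fell with TMM scaling, again 6 of 8 members, where the test called 33% of all genes higher and 30.4% lower. With ERCC scaling no member was called higher. RNF2 was then at 0.03 (edgeR adjusted p = 0.736), and RING1 and PHC1 turned to -0.05 and -0.11. With TMM scaling the median of the members was 0.10, against 0.01 over all genes. RNF2 measured 50.8, 50 and 50 CPM with GFP and 64.4, 60.9 and 67.6 CPM with SMARCB1 (log2 fold change 0.35, SE 0.04, edgeR adjusted p = 1.14e-07). CBX6 measured 122, 117 and 123 CPM with GFP and 82.1, 97.5 and 84.9 CPM with SMARCB1 (log2 fold change -0.45, SE 0.05, edgeR adjusted p = 3.1e-07). CBX2 measured 53.2, 49.6 and 50 CPM against 40.8, 43.7 and 40 CPM, and its log2 fold change was -0.29 (edgeR adjusted p = 8.14e-06). None of these 3 genes had overlapping groups. BMI1 measured 278, 298 and 287 CPM against 252, 242 and 254 CPM, and its log2 fold change was -0.21 (edgeR adjusted p = 8.64e-06). RING1 measured 12.6, 12.2 and 11.8 CPM against 17.3, 13.8 and 13.1 CPM, and the first SMARCB1 library stood well above the other two. PHC1 measured 8.75, 7.32 and 8.75 CPM against 9.3, 9.61 and 9.93 CPM. Both groups were apart, but the gaps were small for the spread.

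The log2 fold change of RING1 was 0.27 (edgeR adjusted p = 0.0235). It no longer passed without GFP dBRD9-A replicate 2 (0.0591), GFP dBRD9-A replicate 3 (0.0751) or SMARCB1 dBRD9-A replicate 1, where it was 0.14 (adjusted p = 0.177). The log2 fold change of PHC1 was 0.22 (edgeR adjusted p = 0.0348). It no longer passed without GFP dBRD9-A replicate 2 (0.13, adjusted p = 0.201), SMARCB1 dBRD9-A replicate 2 (adjusted p = 0.0655) or SMARCB1 dBRD9-A replicate 3 (0.18, adjusted p = 0.111), nor by DESeq2 (0.21, adjusted p = 0.0527). CBX8 measured 8.46, 9.64 and 10.2 CPM against 11.3, 10.2 and 10.7 CPM, which meet at 10.2. Its log2 fold change of 0.18 had a 95% interval of -0.01 to 0.37 (edgeR adjusted p = 0.0628). CBX8 passed on leaving out GFP DMSO replicate 1 (adjusted p = 0.0461) and on leaving out GFP dBRD9-A replicate 3 (0.24, adjusted p = 0.0322). CBX7 measured 6.34, 5.11 and 6.67 CPM against 6.24, 6.23 and 6.05 CPM and overlapped, with 0.03 on the log2 scale (95% interval -0.21 to 0.27).

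**Figure D2:**
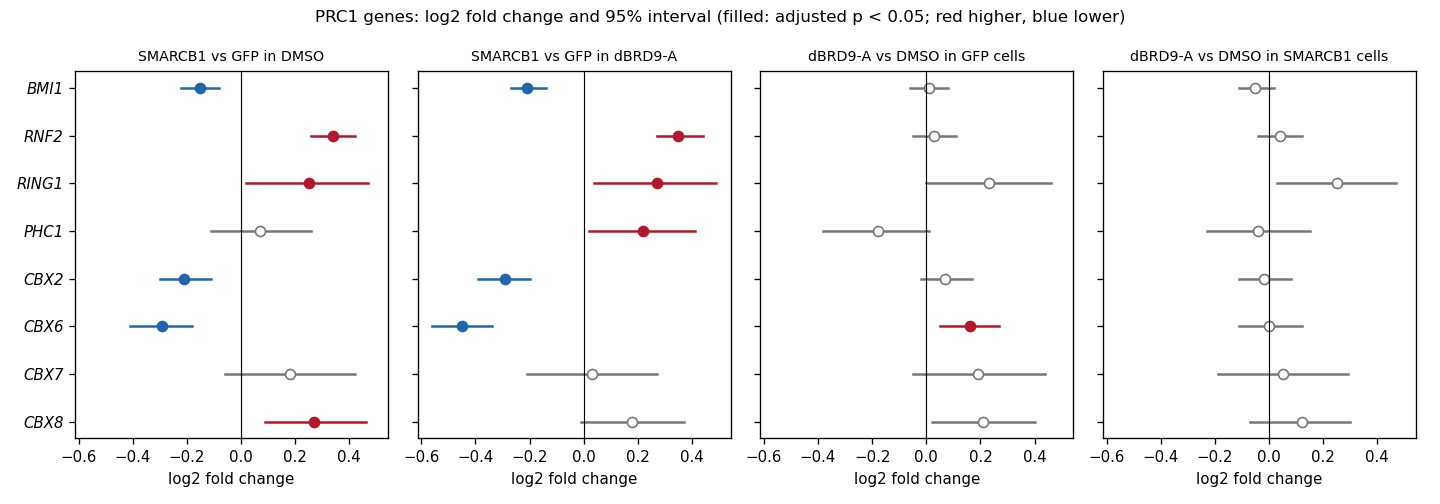
Log2 fold change of each PRC1 gene with its 95% interval in 4 comparisons (edgeR, TMM scaling); filled points passed an adjusted p under 0.05. RNF2, CBX2, CBX6 and BMI1 lie away from 0 in both comparisons of SMARCB1 with GFP, whereas CBX6 alone passed with dBRD9-A in GFP cells and no member passed in SMARCB1 cells. With ERCC scaling in DMSO, BMI1 turns to 0.02, and CBX2 (-0.04) and CBX6 (-0.13) do not pass. With ERCC scaling and dBRD9-A, RNF2 (0.03) does not pass, and RING1 and PHC1 turn to -0.05 and -0.11.

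The next comparison asked what dBRD9-A does to these genes in cells without SMARCB1. CBX6 was the 1 member of 8 that rose and no member fell, where 7.43% of all genes were called higher and 8.47% lower with TMM scaling. With ERCC scaling 7 rose and 0 fell, where 11083 of 15750 genes were called higher and 227 lower. CBX6 went from 106, 112 and 106 CPM in DMSO to 122, 117 and 123 CPM with dBRD9-A, with no overlap. The log2 fold change was 0.16 (SE 0.05, edgeR adjusted p = 0.0328). This call was lost without GFP DMSO replicate 1 (adjusted p = 0.11), GFP DMSO replicate 3 (0.106), GFP dBRD9-A replicate 1 (0.105) or GFP dBRD9-A replicate 3 (0.11), with 0.15 in each case. RING1 measured 9.82, 9.53 and 11.7 CPM in DMSO and 12.6, 12.2 and 11.8 CPM with dBRD9-A, where the groups lay next to each other without overlap. Its log2 fold change of 0.23 had an edgeR adjusted p of 0.132, and of 0.0475 without GFP DMSO replicate 3. CBX8, at 9.11, 7.42 and 7.81 CPM against 8.46, 9.64 and 10.2 CPM, overlapped. Its log2 fold change was 0.21 (edgeR adjusted p = 0.107), and it passed on leaving out GFP DMSO replicate 1 (0.30, adjusted p = 0.0298) and on leaving out GFP dBRD9-A replicate 1 (0.29, adjusted p = 0.0451).

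With TMM scaling the abundant core subunits had fitted changes near 0 in the same cells. BMI1 had a log2 fold change of 0.01 (95% interval -0.06 to 0.08) and RNF2 one of 0.03 (95% interval -0.05 to 0.11). CBX2 had 0.07 (95% interval -0.02 to 0.17) and CBX7 0.19 (95% interval -0.05 to 0.44). PHC1 measured 9.23, 10.5 and 8.61 CPM in DMSO and 8.75, 7.32 and 8.75 CPM with dBRD9-A, overlapping, with -0.18 on the log2 scale (edgeR adjusted p = 0.164). The median of the members was 0.12, against 0.00 over all genes. With ERCC scaling BMI1 was at 0.37 and RNF2 at 0.39, where the median of all genes was 0.36. This comparison shares its DMSO libraries with the first one.

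In SMARCB1 cells dBRD9-A changed no member by edgeR or DESeq2 at an adjusted p under 0.05, where edgeR called 0.679% of all genes higher and 1.25% lower. By unadjusted p under 0.05, 1 member passed with either tool. That member was RING1 by edgeR, with 12.9, 13 and 11.3 CPM in DMSO and 17.3, 13.8 and 13.1 CPM with dBRD9-A. The groups were apart by little, and the log2 fold change of 0.25 had a 95% interval of 0.03 to 0.47 and an edgeR adjusted p of 0.243. The other members lay between -0.05 (BMI1) and 0.12 (CBX8) on the log2 scale, with intervals such as -0.11 to 0.12 for CBX6 and -0.04 to 0.12 for RNF2. BMI1 measured 259, 256 and 256 CPM in DMSO and 252, 242 and 254 CPM with dBRD9-A, slightly lower in all 3 libraries, at -0.05 (95% interval -0.11 to 0.02). The median of the members was 0.02, against 0.00 over all genes.

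Whether the response to dBRD9-A depended on SMARCB1 was tested as the interaction. With TMM scaling no member passed with edgeR, where 3.8% of all genes were called, and none passed with DESeq2. An unadjusted p under 0.05 was reached by 1 member with either tool. For CBX6, the log2 change with dBRD9-A was 0.16 in GFP cells and 0.00 in SMARCB1 cells, and the difference of -0.16 had an edgeR adjusted p of 0.276 (95% interval -0.32 to 0.00). It passed without SMARCB1 dBRD9-A replicate 2, the library in which CBX6 was at 97.5 CPM, with -0.24 (edgeR adjusted p = 0.00611). The differences for the other members ran from -0.14 (CBX7) to 0.14 (PHC1), and the median was -0.07, against 0.01 over all genes. These values are with TMM scaling. With ERCC scaling edgeR called all 8 members lower, as it did 11204 of 15750 genes.

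**Figure D3:**
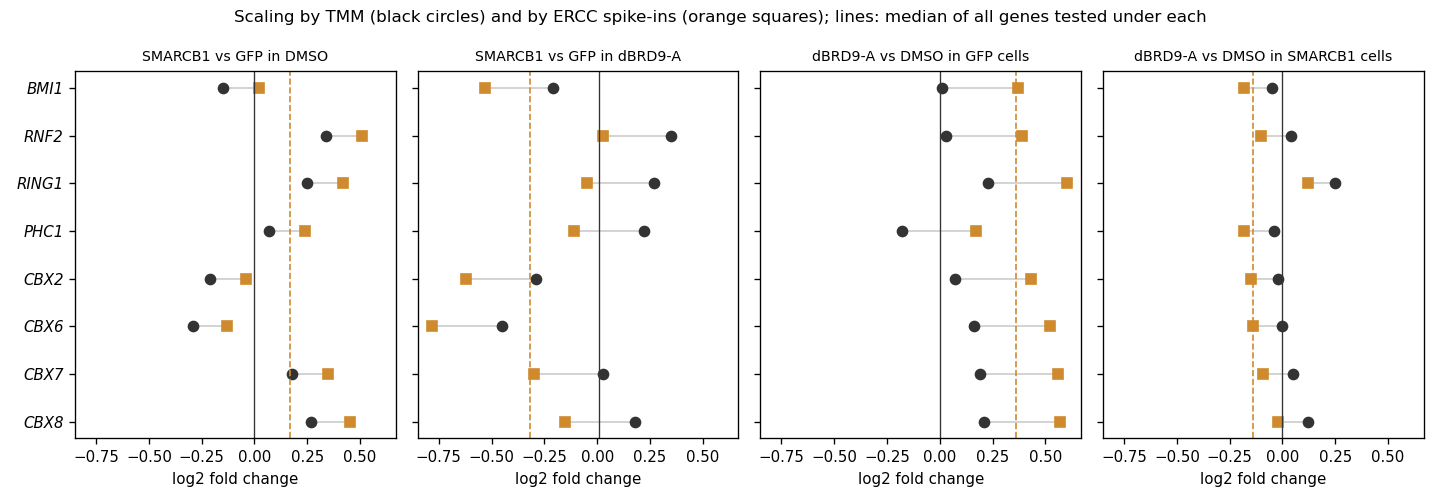
Log2 fold change of each PRC1 gene in 4 comparisons with TMM scaling (circles) and ERCC spike-in scaling (squares), with lines at the median of all genes under each. ERCC scaling moves members and the median of all genes together, by 0.36 with dBRD9-A in GFP cells, so the order of the members within a panel stays while the side of 0 can turn.

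The scaling of libraries sets the side of 0 for changes of this size. ERCC spike-ins, synthetic RNAs that made up 0.963% to 1.302% of counts, moved the median of all genes to 0.17 for SMARCB1 against GFP in DMSO and to -0.32 for the same comparison with dBRD9-A. They moved it to 0.36 for dBRD9-A in GFP cells and -0.14 in SMARCB1 cells. On that scale RNF2 (0.51), CBX8 (0.45), RING1 (0.42), CBX7 (0.35) and PHC1 (0.24) were higher with SMARCB1 in DMSO by the adjusted test, and no member was lower, with CBX2 at -0.04 and CBX6 at -0.13. With dBRD9-A in both cell states, CBX6 (-0.78), CBX2 (-0.62), BMI1 (-0.53) and CBX7 (-0.30) were lower and no member was higher, with RNF2 at 0.03. In GFP cells, 7 members were higher with dBRD9-A, PHC1 being the exception at 0.17, and all 8 interactions were called lower, from -0.66 (CBX6) to -0.35 (PHC1). A change of scaling shifts all genes of a comparison together, so it cannot test on which side of their median a member lies. On either scale RNF2 lay above that median and CBX6, CBX2 and BMI1 below it in both comparisons of SMARCB1 with GFP. Over all 15750 genes, ERCC scaling called 6831 higher and 2581 lower with SMARCB1 in DMSO, and 2129 and 9046 with dBRD9-A in both cell states. For dBRD9-A in GFP cells these were 11083 and 227, and for the interaction 66 and 11204. How the spike-ins were added is not given in the sources used here.

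Ratios of counts within a library depend on no scaling, and were chosen after the values were seen as a description. A ratio shows unequal change and not which gene moved. The log2 ratio of RNF2 to BMI1 counts was -2.58 to -2.51 in GFP cells and -2.05 to -2.04 in SMARCB1 cells in DMSO, and -2.58 to -2.45 and -1.99 to -1.91 with dBRD9-A. The paralogs CBX8 and CBX2 had log2 ratios of -2.76 to -2.42 with GFP and -2.11 to -2.08 with SMARCB1 in DMSO. With dBRD9-A these were -2.65 to -2.29 and -2.10 to -1.86. CBX7 to CBX6 went from -4.49 to -4.19 with GFP to -4.04 to -3.78 with SMARCB1 in DMSO, and from -4.52 to -4.20 to -3.97 to -3.72 with dBRD9-A. The share of the less abundant CBX genes relative to CBX2 and CBX6 was therefore higher in each SMARCB1 library than in each GFP library. The catalytic paralogs did not separate in this way: RNF2 to RING1 was 2.08 to 2.39 with GFP and 2.25 to 2.46 with SMARCB1 in DMSO.

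**Figure D4:**
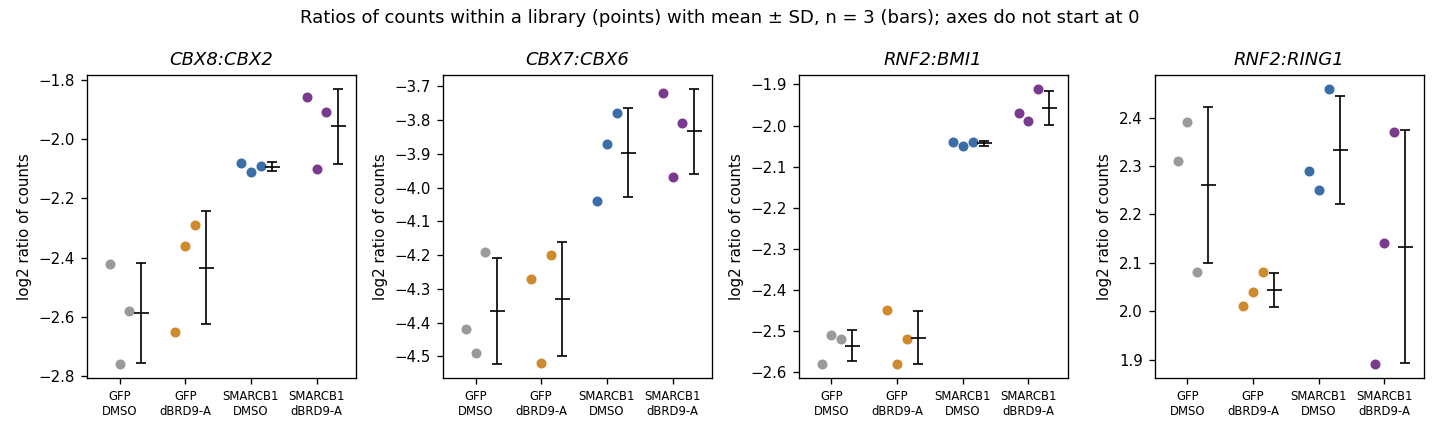
Log2 ratio of counts of 2 PRC1 genes within each library (points; bars are mean ± SD, n = 3; axes do not start at 0). CBX8 to CBX2, CBX7 to CBX6 and RNF2 to BMI1 are higher in every SMARCB1 library than in every GFP library, whereas RNF2 to RING1 overlaps.

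The genes most like RNF2, the called member with the largest change in DMSO, were sought by the root mean square difference of centred log2 CPM over the 12 libraries. They were VPS54 (0.0273), C1orf112 (0.028), CTNNB1 (0.0283), TMBIM6 (0.0304) and ZSCAN20 (0.0329). As many as 1354 of 12584 genes lay within 0.1 of RNF2, so that its profile was a common one.

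The other PRC1 genes on the list, the remaining PCGF proteins, RYBP and YAF2, and partners of variant complexes, numbered 33, of which 32 were tested. SMARCB1 against GFP in DMSO called 12 higher and 7 lower with TMM scaling, with a median of 0.03. As 33.5% of all genes were called higher and 31.6% lower, 19 of 32 is no more than the share of all genes. ERCC scaling gave 18 and 2, against 6831 and 2581 of all 15750 genes. PCGF5, the partner in a variant complex, had 5, 3 and 4 counts in the GFP libraries and 811, 817 and 1176 in the SMARCB1 libraries. The ratio of its scaled counts was 266 with a 95% counting interval of 152 to 516, which rests on 12 counts in the GFP libraries. PCGF5 passed the filter, with its minimum count of 10, through the SMARCB1 libraries alone. It therefore had to differ, and its call by the test adds nothing. With dBRD9-A it had 4, 4 and 5 counts with GFP and 793, 1040 and 892 with SMARCB1, a ratio of 174 (95% counting interval 101 to 327). PCGF5 was thus near the floor without SMARCB1. The listed members that were tested had fitted changes of at most 1.37-fold with TMM scaling.

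SCML1, a relative of the Drosophila Polycomb gene Scm, rose from 9, 17 and 16 counts to 75, 99 and 128 (log2 fold change 3.02, SE 0.23, edgeR adjusted p = 2e-09). RYBP, the variant-complex subunit that binds ubiquitinated H2A, measured 26, 24.7 and 26 CPM with GFP and 36.4, 36.6 and 38.7 CPM with SMARCB1 (log2 fold change 0.54, edgeR adjusted p = 1.08e-08). PCGF1, the partner in the BCOR and KDM2B complex, measured 20.2, 20 and 19.4 CPM with GFP and 13.4, 12.4 and 12.4 CPM with SMARCB1. It fell by 0.64 on the log2 scale (SE 0.05, edgeR adjusted p = 8.39e-09). SCML2 fell by 0.37 and L3MBTL2, of the PCGF6 complex, by 0.30 (edgeR adjusted p = 1.54e-06 and 1.42e-07). With dBRD9-A in both cell states the counts were 12 higher and 8 lower, where 33% of all genes were called higher and 30.4% lower. ERCC scaling gave 3 and 21, against 2129 and 9046 of all 15750 genes. With TMM scaling PCGF1 fell there by 0.62 and PHC2 rose by 0.49 (edgeR adjusted p = 1.68e-08 and 6.61e-10).

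dBRD9-A in GFP cells raised 1 of these genes, E2F6 (0.12, edgeR adjusted p = 0.0396), and lowered 1, PHC3 (-0.22, edgeR adjusted p = 0.0272). Of all genes, 7.43% were called higher and 8.47% lower there. With ERCC scaling 28 were higher and 0 lower, against 11083 and 227 of all 15750 genes. In SMARCB1 cells none of the 32 passed by edgeR with either scaling or by DESeq2, and 3 had an unadjusted p under 0.05 with either tool.

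**Figure D5:**
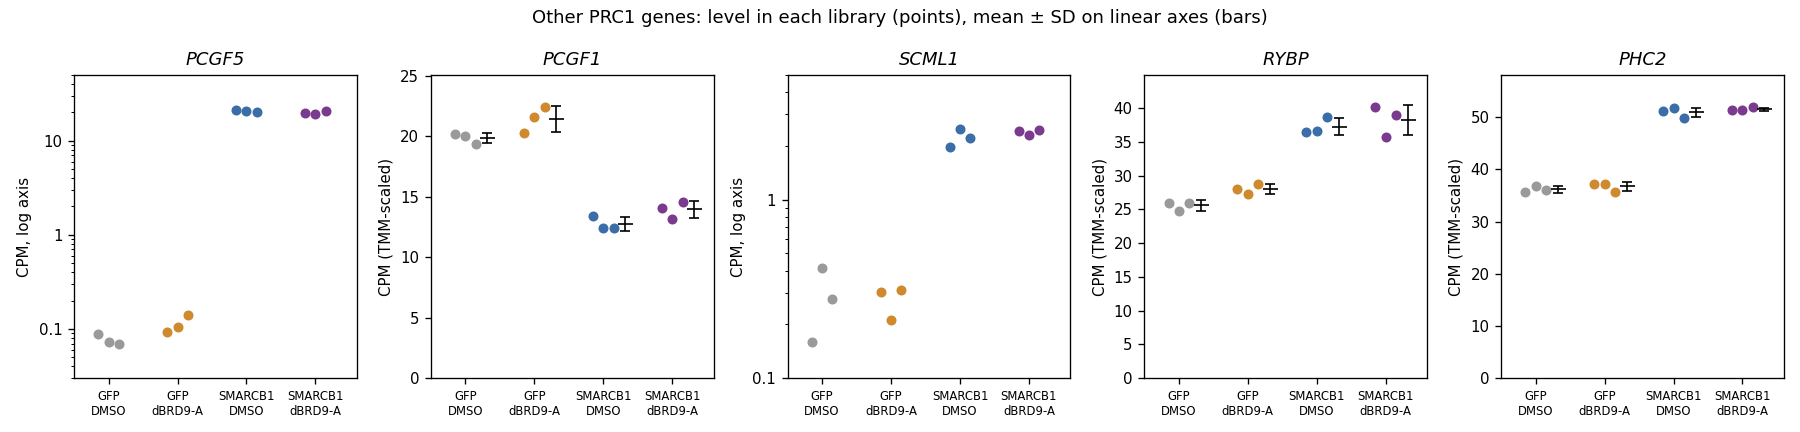
Level of 5 other PRC1 genes in each library, in TMM-scaled CPM (log axes for PCGF5 and SCML1; bars on linear axes are mean ± SD, n = 3). PCGF5 lies near 0.1 CPM in GFP libraries and near 20 CPM in SMARCB1 libraries; SCML1, RYBP and PHC2 are higher and PCGF1 is lower in SMARCB1 libraries.

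Genes that remove the PRC1 mark were given by a list of H2A deubiquitinases and their cofactors, 10 of 11 tested. With SMARCB1 in DMSO, 5 rose and 2 fell, where 33.5% of all genes were called higher and 31.6% lower. These 7 of 10 are thus close to the share of all genes. ERCC scaling gave 7 and 0, against 6831 and 2581 of all 15750 genes. ASXL1, the cofactor of BAP1, rose by 0.55 and MYSM1 by 0.40 on the log2 scale (edgeR adjusted p = 7.21e-11 and 0.000154), while USP21 fell by 0.17 and USP3 by 0.11 (0.04 and 0.0139). With dBRD9-A in both cell states 4 rose and 0 fell with SMARCB1, where 33% of all genes were called higher and 30.4% lower. ERCC scaling gave 1 and 7, against 2129 and 9046 of all 15750 genes. In neither cell state did dBRD9-A change any of the deubiquitinase genes by edgeR with TMM scaling or by DESeq2, and 0 had an unadjusted p under 0.05. Over all genes edgeR called 7.43% higher and 8.47% lower in GFP cells, and 0.679% and 1.25% in SMARCB1 cells. ERCC scaling called 10 of the list higher in GFP cells, where it called 11083 of 15750 genes higher and 227 lower. Of the PRC2 genes, 11 of 13 were tested, and with SMARCB1 in DMSO 5 rose and 2 fell, or 7 and 1 with ERCC scaling. With TMM scaling these 7 of 11 are close to the share of all genes. JARID2, an accessory subunit that links PRC2 to ubiquitinated H2A, rose by 1.45 (SE 0.07, edgeR adjusted p = 1e-11), and RBBP4 fell by 0.42 (edgeR adjusted p = 6.01e-10). PHF19 was the 1 PRC2 gene that fell with dBRD9-A in SMARCB1 cells (-0.17, edgeR adjusted p = 0.00543). It also fell in GFP cells (-0.28, edgeR adjusted p = 5.8e-06), where EZH1 fell and SUZ12 rose. With ERCC scaling, which called most of all genes higher there, 9 rose and 0 fell.

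Of 16 textbook Polycomb target genes outside the HOX clusters, 8 were tested, and the others were too low for the filter. In DMSO, 7 of these 8 were higher and 1 was lower with SMARCB1, on either scaling. Of all genes, 33.5% were called higher and 31.6% lower with TMM scaling. CCND2, a G1 cyclin, went from 10 to 15 counts to at least 832 (log2 fold change 6.59, SE 0.16, edgeR adjusted p = 1.65e-16). GATA6, an endoderm factor, went from 6 to 18 counts to at least 410 (log2 fold change 5.63, SE 0.17, edgeR adjusted p = 5.48e-15). HAND1 had 1 to 2 counts with GFP and 163 to 264 with SMARCB1, a ratio of 171 with a 95% counting interval of 66.5 to 630. CDKN2A, named after its values were seen as the gene that BMI1 is known to silence, had a log2 fold change of 1.54 (SE 0.18, edgeR adjusted p = 5.12e-07). PAX2, the 1 gene that was lower and also named after its values were seen, had 15 to 26 counts with GFP and 0 or 1 with SMARCB1. A gene that passed the filter through 1 group alone had to differ, so these counts do not describe the list as a whole. None of the 8 was called with dBRD9-A in either cell state by edgeR with TMM scaling or by DESeq2. With either tool 1 had an unadjusted p under 0.05 in GFP cells and 0 in SMARCB1 cells. With ERCC scaling 4 were higher in GFP cells, where 11083 of 15750 genes were.

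Proliferation genes are given beside the members because their level differed between the same groups. With SMARCB1 in DMSO, 9 of 17 rose and 2 fell, where 33.5% of all genes were called higher and 31.6% lower. The total called is close to that of all genes, but a larger share rose and a smaller share fell. The list's median was 0.15, against 0.00 over all genes. ERCC scaling gave 14 and 0, against 6831 and 2581 of all 15750 genes. The summed level of the list on the TMM scale was 4366 to 4417 CPM in GFP libraries and 4678 to 4694 CPM in SMARCB1 libraries. MKI67 rose by 0.67 and PLK1 by 0.47 on the log2 scale (edgeR adjusted p = 0.000176 and 1.29e-10). With dBRD9-A in both cell states, 10 rose and 2 fell with SMARCB1, where 33% of all genes were called higher and 30.4% lower. With ERCC scaling 0 rose and 13 fell, against 2129 and 9046 of all 15750 genes. The summed level there was 4357 to 4480 CPM in GFP cells and 4549 to 4614 CPM in SMARCB1 cells on the TMM scale. The part of proliferation in the values of the PRC1 genes was not tested.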

How the data were processed

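Per the labels' protocols, a Qiagen RNeasy kit gave the RNA and a TruSeq Stranded mRNA kit the libraries. The deposited tables hold expected counts per gene, which the authors made with RSEM. STAR, RSEM 1.3.1, DESeq2, GRCh37 and hg19 are named in the submitters' processing notes, without roles or order, and the use of strand in counting is not given in the sources used here. Expected counts (2.57% not whole) were rounded. Symbols were matched by unversioned identifier, for 51996 of 57820. The 40 ERCC identifiers entered neither library sizes nor tests. Depth, 34.97 to 58.54 megacounts, bounds the precision, and floors and counting intervals cover counting error only, since reads carry no molecular identifiers.

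Genes passing filterByExpr (minimum count 10) were tested with edgeR 4.0.16 in R 4.3.3 in 1 quasi-likelihood fit of all 12 libraries, with TMM scaling and Benjamini-Hochberg adjustment over 15750 genes, and a gene was called at an adjusted p under 0.05. Intervals use 8 residual degrees of freedom. The fit was tested on simulated data. Replicates differed by more than sampling noise and were counted separately. RefSeq and GENCODE 29 are on GRCh38, so no gene coordinates are set beside the counts.

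The members and lists were chosen with earlier results of these data known. All members were named; from other lists, called genes with a mean of at least 50 counts, up to 3 largest rises and 3 largest falls per comparison, plus PHC2, PHC3, SMARCB1 and BRD9. A further gene of that rule is not reported here. Alternatives were RLE size factors, library size alone, ERCC scaling, DESeq2 1.42.0, no filter, a mean of at least 50 counts, a fit of 2 groups, a log2 fold change of at least 0.5, the replicate block, a sum with the read-through gene, and leaving out each library.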

Additional observations from a re-analysis of the deposited data

How the results depend on the processing

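Over the alternatives run, 733 of the single-gene values kept their direction and call, 23 passed where the reported value did not, 20 no longer passed and 21 reversed. Requiring a log2 fold change of at least 0.5 left 0 called members in both comparisons of SMARCB1 with GFP and with dBRD9-A in GFP cells. ERCC scaling called 7 members with dBRD9-A in GFP cells and 8 in the interaction. Without the filter on low counts, 2 members were called with dBRD9-A in GFP cells and 1 in SMARCB1 cells, RING1 being the addition in each, and a fit of the 2 groups alone called 2 in GFP cells. Leaving out 1 library gave 0 to 2 called members with dBRD9-A in GFP cells and 0 to 1 in the interaction.

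With ERCC scaling, BMI1 with SMARCB1 in DMSO turned to 0.02, PHC1 with dBRD9-A in GFP cells to 0.17, and, with dBRD9-A in SMARCB1 cells, CBX7 to -0.09, CBX8 to -0.02 and RNF2 to -0.10. For SMARCB1 against GFP with dBRD9-A, CBX7 turned to -0.30, CBX8 to -0.15, RING1 to -0.05 and PHC1 to -0.11, and in the interaction RING1 to -0.47, RNF2 to -0.49 and PHC1 to -0.35. Library size alone turned the interaction of RNF2 to -0.01. Leaving out 1 library gave -0.01 to 0.04 for BMI1 with dBRD9-A in GFP cells, -0.06 to 0.01 for CBX2 and -0.03 to 0.10 for CBX7 with dBRD9-A in SMARCB1 cells, and -0.07 to 0.10 for CBX7 with SMARCB1 under dBRD9-A. It gave -0.11 to 0.09 for RING1 and -0.04 to 0.05 for RNF2 in the interaction. Beyond the shift of the median of all genes that ERCC scaling brings, the cause was not tested.

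Over all genes, ERCC scaling called 11310 genes with dBRD9-A in GFP cells (2504 as reported), 873 in SMARCB1 cells (304) and 11270 in the interaction (598), with 98%, 4.47% and 0.586% of the calls higher. For SMARCB1 against GFP, 72.6% of its calls were higher in DMSO and 19.1% with dBRD9-A. For dBRD9-A in SMARCB1 cells, no filter called 652 genes and a fit of the 2 groups alone 159, with 45.1% and 22.6% higher.

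Replicate numbers did not pair the samples: deviations of same-numbered libraries correlated at -0.05 to 0.08. With the replicate block, 6, 1, 0, 5 and 0 members were called, in the order SMARCB1 in DMSO, dBRD9-A in GFP cells, dBRD9-A in SMARCB1 cells, SMARCB1 with dBRD9-A, and interaction. PHC1 was the call lost, at 0.21 (edgeR adjusted p = 0.0507). Members near 10 CPM or below (CBX7, CBX8, PHC1, RING1) had standard errors of 0.08 to 0.11, against 0.03 to 0.05 for the others.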
